A study of Ovis aries with 36 samples.

Results

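Grain medium at T16 was compared with Grain medium at T12, a change over 4 h within a single medium, across all genes of the count table. The comparison used 6 of the 36 RNA sequencing libraries of the series, 3 of Grain T12 and 3 of Grain T16, chosen by their labels. The cells were ovine ruminal epithelial cells, cultured cells of the lining of the sheep forestomach. All groups spent 2 h in DMEM/F12 without serum that held 100 nM dexamethasone, a synthetic glucocorticoid, and then received medium with added volatile fatty acids (VFAs), set to pH 7.2. Grain medium held 71.1 mM acetate, 20.1 mM propionate, 16.0 mM butyrate, 5.3 mM isovalerate, 1.7 mM valerate and 1.1 mM isobutyrate, with a stated total of 115.78 mM. Grain T12 cells were harvested at 36 h and Grain T16 cells at 40 h. Which step those hours count from is not given in the sources used here. Hay medium, used beside it at the same time points with 3 libraries each, held 60.8 mM acetate, 14.6 mM propionate, 9.2 mM butyrate, 3.0 mM isovalerate, 1.2 mM valerate and 1.0 mM isobutyrate, with a stated total of 89.79 mM. Nothing in the labels tells if replicate libraries stem from different dishes or different sheep. The p-values therefore measure only the spread between these libraries, which may be technical.

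Ruminal epithelium takes up VFAs made by rumen microbes and oxidises part of them, butyrate in particular, in mitochondria. Cells in culture lay down an extracellular matrix of collagens, fibronectin and proteoglycans, and pull on it through integrins, focal adhesions and actin fibres. Genes of matrix and actin are known targets of TGF-beta signalling and of the transcription factors SRF and YAP, which respond to the state of the actin cytoskeleton. Glucocorticoids such as dexamethasone act on a nuclear receptor with its own set of target genes, and a pulse of them is used to align the clocks of cultured cells.

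The 3 Grain T12 libraries held 64630683 to 65228741 counts and the 3 Grain T16 libraries 60366280 to 61535862, so the totals did not overlap. The TMM scaling factors, which correct for a few genes taking much of a library, were 0.864 ± 0.0050 at T12 and 0.918 ± 0.0050 at T16 (SD, n = 3 each) and did not overlap either. Levels below are CPM, a gene's counts relative to its library's total, scaled with these factors, and changes are log2 fold changes, T16 minus T12. On the labelled cell type, all 12 basal keratinocyte markers were detected at both time points, among them KRT5, KRT14 and TP63. They summed to 2430 to 2494 CPM at T12 and 1989 to 2115 CPM at T16. Of 12 differentiated keratinocyte markers in the count table, KRT4 and KRT1 had no count in any of the 6 libraries. The list still summed to 150 to 153 CPM at T12 and 126 to 140 CPM at T16. The summed level of 20 fibroblast markers was 129621 to 133620 CPM at T12 and 112164 to 115290 CPM at T16, most of it FN1. The summed level of 11 smooth muscle and myofibroblast markers was 2321 to 2356 CPM and 1816 to 1943 CPM. Endothelial markers summed to 23.3 to 24.3 CPM and 20.9 to 23.0 CPM, and leukocyte markers to 4.83 to 5.74 CPM and 5.03 to 6.07 CPM, with MS4A1 at 0 in all 6 libraries. In such bulk libraries, fewer cells of a type and less RNA per cell cannot be told apart.

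From T12 to T16, genes of the extracellular matrix, the actin cytoskeleton and the mitochondrial genome fell together, and no list of the 44 had more than 4 members that rose. Of 22488 genes tested with edgeR's quasi-likelihood test, 2343 passed an adjusted p of 0.05 (10.4%), 1054 of them higher at T16 (4.69%) and 1289 lower (5.73%). Most changes were small. The median log2 fold change was 0.31 among the genes that rose and -0.20 among those that fell, against 0.00 over all genes tested. Changes of 2-fold or more numbered 130 rises and 27 falls, nearly all of them in genes of few counts. Among called genes with a mean of at least 5 CPM in either group, 684 were higher (5.95% of such genes) and 1234 lower (10.7%), and 1 in each direction changed 2-fold or more. The rise was SPAG4, and the fall was the uncharacterised LOC101108868, which stood at 0.703, 0.476 and 153 CPM at T12 and 0.486, 0.485 and 1.73 CPM at T16 and so rests on the third T12 library, the groups otherwise overlapping. Another 145 of the rises and 24 of the falls lay under 1 CPM in both groups. The libraries of the time points were fully apart for 955 of the genes that rose and 1253 of those that fell, the libraries the test itself used. Over all genes tested, every T16 library was above every T12 library for 11.1% and below for 13.5%.

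The direction leaned with abundance, weakly over all genes and in both media. The rank correlation of log2 fold change with abundance was -0.20 in Grain and -0.23 in Hay. In Grain, among the 5622 genes with the highest counts, 985 fell (17.5%) and 273 rose (4.86%), and of the 100 most abundant genes 60 fell and 1 rose. Among the 5622 with the lowest counts, 20 fell and 111 rose. Long noncoding RNAs (lncRNAs) leaned the other way from messenger RNAs: of 3682 lncRNAs tested 221 rose and 16 fell, whereas of 17728 protein-coding genes 817 rose and 1261 fell. Over all 22488 genes 1054 rose (4.69%) and 1289 fell (5.73%). The classes were not matched for abundance, and the 5622 genes with the lowest counts also had more rises than falls. The lncRNA share of all counts went from 1.08% ± 0.010 to 1.24% ± 0.029 in Grain and from 1.59% ± 0.049 to 1.96% ± 0.017 in Hay (SD, n = 3). The split between rises and falls rests on the scaling. With library totals in place of the TMM factors, the median log2 fold change of all genes moved to 0.09 and 3125 genes were higher and 484 lower. None of the 155 named genes that passed the test turned its direction under any setting tried, but 40 of them no longer passed with library totals, most of them small falls. Among the genes described below, the calls of ACADM, ANLN, BIRC2, BSG, CCNB1, CGN, DGAT2, ELOVL5, EPCAM, GLUD1, MCCC1, MCM3, NOCT, NR1D2, PC, RIGI, RPS29, SIRT3, SLC7A5, TOP2A, TPX2, VLDLR and VWA7 were also lost when at least 1 of the 6 libraries was left out.

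**Figure D1:**
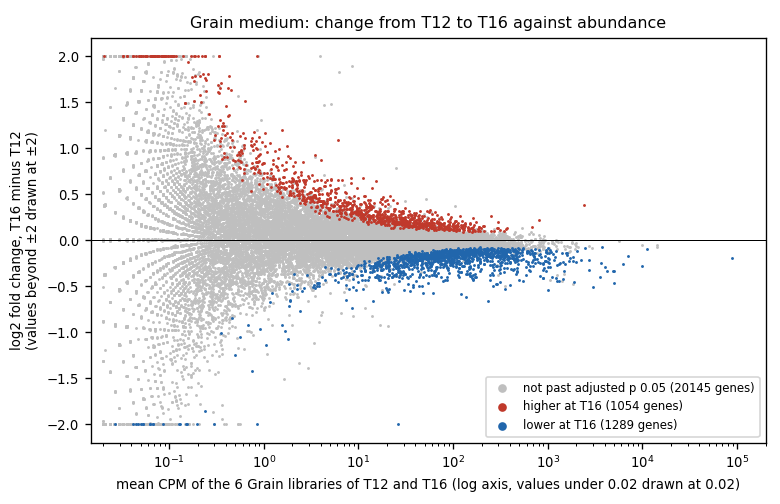
Log2 fold change from T12 to T16 in Grain medium (vertical axis, values beyond 2 drawn at the edge) against the mean CPM of the 6 libraries (horizontal log axis), 1 point per gene. Red points are the 1054 genes called higher at T16, blue points the 1289 called lower and grey points those not past an adjusted p of 0.05, and blue points prevail on the right, among the abundant genes.

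The T12 libraries stood at one end of the time course for nearly all these genes. Of the 1289 genes that fell, 1254 (97.3%) had their highest Grain mean of the 6 time points at T12, against 26.7% of all genes tested. Of the 1054 that rose, 1030 (97.7%) had their lowest Grain mean at T12, against 31.3%. T12 enters both the choice of these genes and their ranking, so those shares are descriptions. The Hay levels did not enter the contrast that chose these genes, although the Hay libraries shared its filter, scaling and estimate of spread. In Hay 71.2% of the genes that fell in Grain also had their highest mean at T12, against 27.5% of all genes. That comparison was not matched for abundance, and 985 of the 1289 lay among the 5622 genes with the highest counts. The Grain mean at T8, 4 h before T12, was lower than at T16 for 1206 of the 1289 genes that fell. For 1121 the mean at T20 was lower again than at T16.

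Extracellular matrix genes fell almost as a whole. Of 39 matrix genes and their enzymes tested, 37 fell, 1 rose and 1 did not pass the test, with a median log2 fold change of -0.29. Matrix genes took 12.6% ± 0.18 of all counts at T12 and 11.4% ± 0.18 at T16 (SD, n = 3). COL1A2, which encodes the second chain of type I collagen, stood at 5679, 5642 and 5609.8 CPM at T12 and 4459.7, 4565 and 4422 CPM at T16. No T16 library reached a T12 library, and the log2 fold change was -0.33 (SE 0.028, adjusted p = 3.45e-10). COL1A1, the first chain, stood at 3549.5, 3513 and 3527 CPM at T12 and 2474, 2463 and 2504 CPM at T16, again fully apart, and fell by 0.51 (adjusted p = 2.02e-11). It overlaps another annotated gene, and since the libraries keep no strand its value is uncertain. COL3A1 and COL5A1, chains of other fibrillar collagens, changed by -0.34 (SE 0.034, adjusted p = 9.77e-09) and -0.41 (SE 0.04, adjusted p = 7.67e-09).

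Other genes of the list encode proteins that bind, fold or crosslink collagen. SERPINH1, the endoplasmic reticulum chaperone of collagen, stood at 142, 146 and 151 CPM at T12 and 91.1, 95.0 and 107 CPM at T16. The groups did not overlap, and the change was -0.59 (SE 0.051, adjusted p = 6.7e-10). VCAN, the large proteoglycan versican, stood at 1205, 1189 and 1184 CPM at T12 and 772, 861 and 828 CPM at T16, a change of -0.54 (SE 0.048, adjusted p = 7.54e-10). PRELP, a small leucine-rich proteoglycan, fell from 10.8 to 6.49 CPM on average (-0.74, SE 0.13, adjusted p = 0.000147). LOX, which crosslinks collagen, fell by 0.33 (adjusted p = 2.78e-05). The prolyl hydroxylase subunits P4HA1 and P4HA2, needed for stable collagen, changed by -0.25 and -0.25, and both overlap other genes. FN1, fibronectin, alone gave 8.19% ± 0.14 of all counts at T12 and 7.60% ± 0.11 at T16. It stood at 96737, 94573 and 93088 CPM at T12 and 81126, 83988 and 83280.4 CPM at T16 and fell by 0.20 (adjusted p = 1.88e-05). The single matrix gene that rose was MMP1, the interstitial collagenase, by 0.27 (adjusted p = 0.00472), and ELN, elastin, at 0.26 (adjusted p = 0.826) did not pass. The call of MMP1 was lost without the first T16 library. Both were named after their values were seen, to complete the count.

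All 39 matrix genes had a T16 mean in Grain between those of T8 and T12, against 62.7% of all genes tested. For 37 the T20 mean lay below T16, against 47.6%. The call of 37 genes as lower at T16 fixes part of this order, and it was not particular to the matrix. Of all 1289 genes that fell, 1206 had a T8 mean below T16 and 1121 a T20 mean below it. COL1A2 stood at 2900.2 ± 62.2 CPM at T8, 5644 ± 34.6 at T12, 4482 ± 73.7 at T16 and 3996 ± 89.3 at T20 (SD, n = 3). The T16 value lay between the T8 low and the T12 high. In Hay medium 25 of the 39 fell between the same time points, all 25 among the 37, against 4.83% of all genes that fell and 1.85% that rose there. For 8 matrix genes the fall was larger in Grain than in Hay by the test of the difference, which 1.81% of all genes passed. They included COL1A1, with a difference of -0.35 (SE 0.053, adjusted p = 0.000115), COL1A2 with -0.25 (SE 0.039, adjusted p = 0.0003) and VCAN with -0.39 (SE 0.067, adjusted p = 0.000845).

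Genes of the actin cytoskeleton and focal adhesions fell beside the matrix. Of 29 tested, 20 fell, none rose and 9 did not pass, with a median of -0.22. ACTA2, the actin of smooth muscle and myofibroblasts, had the smallest p of all genes in this comparison. It stood at 279, 286 and 284 CPM at T12 and 175, 178 and 186 CPM at T16, groups far apart, and changed by -0.66 (SE 0.045, adjusted p = 4.56e-12). Its mean was 63.6 ± 1.20 CPM at T8 and 130.0 ± 7.60 CPM at T20. ACTB, cytoplasmic beta-actin, stood at 1433, 1417 and 1472 CPM at T12 and 1046, 1083 and 1046 CPM at T16 and fell by 0.44 (adjusted p = 1.68e-08). VCL, vinculin, which ties integrins to actin, stood at 532, 524 and 525 CPM at T12 and 420.5, 437 and 425 CPM at T16 and changed by -0.30 (SE 0.026, adjusted p = 6.28e-10). For each of these genes every T16 library was below every T12 library. ITGA5, the fibronectin receptor subunit, which overlaps other genes, changed by -0.38, and CALD1, the actin-binding caldesmon, by -0.33. SRF, a transcription factor of many actin genes that is listed with the immediate early genes, fell from 50.8 to 40.8 CPM (-0.32, SE 0.055, adjusted p = 0.000113). A link between SRF and the actin falls was not tested. Among the 9 that did not pass were PTK2, the focal adhesion kinase, at -0.01 and ITGAV, an integrin subunit, at -0.02.

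Markers of contractile and mesenchymal cells moved with these lists. Of 11 smooth muscle and myofibroblast markers 8 fell and none rose (median -0.24), and of 20 fibroblast markers 14 fell and none rose (median -0.24), with VIM, vimentin, at -0.08 (SE 0.034, adjusted p = 0.163) among the rest. TAGLN, transgelin of contractile cells, changed by -0.24 (SE 0.05). In Hay medium 9 and 9 of these markers fell. Whether the share of such cells in the cultures changed between the time points was not tested. The actin list fell nearly as often in Hay, 18 of 29, with 14 genes lower in both media, and 1 of the 29 passed the test of a difference between media. For VCL the difference was -0.01 (SE 0.037, adjusted p = 0.962).

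Keratins of the basal epithelial layer fell as well. Of 12 basal keratinocyte markers 8 fell and none rose, with a median of -0.28. KRT5, the basal type II keratin, stood at 159.9, 170.0 and 165 CPM at T12 and 104, 105 and 113 CPM at T16, fully apart, a change of -0.62 (SE 0.065, adjusted p = 2.64e-08). Its partner KRT14 stood at 277, 302 and 294 CPM at T12 and 217, 215 and 249.9 CPM at T16 and changed by -0.35 (SE 0.054, adjusted p = 1.46e-05). COL17A1 and ITGA6, parts of the hemidesmosome that fixes basal cells to the matrix, changed by -0.31 and -0.27. TP63, the transcription factor of basal cells, which overlaps a tRNA gene, did not pass the test at -0.04 (SE 0.13, adjusted p = 0.924). KRT6A, a keratin of activated keratinocytes, stood at 39.9, 44.0 and 39.9 CPM at T12 and 27.7, 25.6 and 30.8 CPM at T16 and was the single one of 10 differentiated keratinocyte markers to pass (-0.56, SE 0.074, adjusted p = 1.81e-06). Of 11 markers of simple epithelium 4 fell, KRT8, KRT19, CLDN4 and EPCAM, by 0.38, 0.30, 0.34 and 0.24. Of 34 genes of tight, adherens and desmosomal junctions 4 fell and 1 rose, or 3 and 3 with library totals. The main counts were 11.8% lower and 2.94% higher, against 5.73% and 4.69% of all genes. The 1 that rose was CGN, the tight junction protein cingulin, at 0.18 (SE 0.047, adjusted p = 0.00958), a call lost without the first T12 or the third T16 library. The desmosomal cadherin gene DSG3 and the plakoglobin gene JUP, both overlapping other genes, changed by -0.38 and -0.26.

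Signalling genes around TGF-beta and YAP fell in part. Of 30 tested 11 fell and none rose, with a median of -0.07 against 0.00 over all genes. Without the first T12 library 7 fell, and with library totals 7 fell and 3 rose. The ligand genes TGFB1, TGFB2 and TGFB3 all fell, as did the receptor gene TGFBR1. TGFB3, a TGF-beta ligand, stood at 24.4, 23.6 and 25.3 CPM at T12 and 15.9, 16.5 and 17.2 CPM at T16, fully apart (-0.56, SE 0.079, adjusted p = 4.94e-06). INHBA, the activin A subunit, stood at 1064, 1017 and 988 CPM at T12 and 741, 776 and 783 CPM at T16 and fell by 0.42 (adjusted p = 4.54e-08). THBS1, thrombospondin-1, which can activate TGF-beta, stood at 5881, 5627 and 5719.8 CPM at T12 and 4095, 4268 and 4152 CPM at T16 and fell by 0.46 (adjusted p = 3.92e-11), although it overlaps FSIP1 and is uncertain. TGFBI, a matrix protein induced by TGF-beta, changed by -0.40 (SE 0.042). CCN2, a YAP target that overlaps another gene, changed by -0.26. SMAD2, SMAD3, SMAD4 and YAP1, the intracellular carriers of these signals, had log2 fold changes of -0.03, 0.04, -0.05 and -0.07, none past the test. The change differed between media for 6 of the 30, among them INHBA, which stood at 783, 802 and 780.4 CPM at T12 and 820.4, 819.5 and 775 CPM at T16 in Hay. Those Hay groups overlap, and the difference between media was -0.45 (SE 0.064, adjusted p = 4.95e-05).

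**Figure D2:**
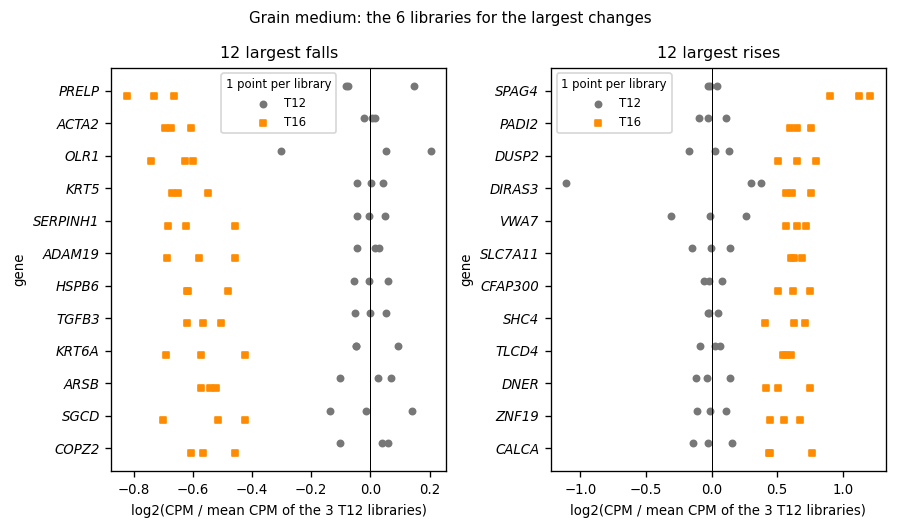
The 6 Grain libraries for the 12 genes with the largest falls (left) and the 12 with the largest rises (right) among named genes of at least 5 CPM. Each point is the log2 of a library's CPM over the mean of the 3 T12 libraries (circles T12, squares T16), and only genes whose T16 points all lie to one side of the T12 points were drawn. In DIRAS3 1 T12 library lies far from the other 2.

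All 13 mRNAs encoded in the mitochondrial genome fell in Grain medium. They code for subunits of respiratory complexes and of ATP synthase. Together they made up 1.39% ± 0.048 of all counts at T12 and 1.18% ± 0.015 at T16 (SD, n = 3), and their median change was -0.43. COX3, a subunit of cytochrome c oxidase, stood at 444, 411 and 397 CPM at T12 and 285, 291 and 293 CPM at T16, fully apart, and changed by -0.53 (SE 0.046, adjusted p = 6.7e-10). CYTB, cytochrome b of complex III, stood at 356, 337 and 323 CPM at T12 and 249.8, 237 and 246 CPM at T16 and changed by -0.47 (SE 0.061, adjusted p = 1.32e-06). ND1, a subunit of complex I, stood at 498, 473 and 438 CPM at T12 and 341, 336 and 327 CPM at T16 and fell by 0.49 (adjusted p = 1.85e-06). COX1, which overlaps a mitochondrial tRNA gene, had the smallest fall of the 13, 0.28. All 13 had their highest Grain mean at T12 and their lowest at T8.

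Of 23 nuclear genes for the same complexes none passed the edgeR test in either direction, 2 at an unadjusted p under 0.05 did, and 1 was lower by DESeq2. With library totals 7 were higher, against 13 of 13 mitochondrial mRNAs lower. NDUFS1, SDHA and ATP5F1B, subunits of complexes of the respiratory chain and of ATP synthase, had log2 fold changes of 0.07, 0.05 and 0.01. In Hay medium the mitochondrial mRNAs made up 3.26% ± 0.24 and 3.28% ± 0.046 of counts at T12 and T16, and none of the 13 passed there, with a median of -0.03. Still, 12 of the 13 had a Hay change below zero, as had 11314 of all 22488 genes tested. For 11 of the 13 the highest Hay mean was also at T12, against 27.5% of all genes. The difference between media passed the test for 8 of the 13, all with the larger fall in Grain. COX3 stood at 1429, 1486 and 1556 CPM at T12 and 1387, 1422 and 1471 CPM at T16 in Hay, where the groups overlap, and the difference was -0.46 (SE 0.065, adjusted p = 3.71e-05). For CYTB it was -0.44 (SE 0.086, adjusted p = 0.00295).

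Genes of the immediate early response and of MAP kinase feedback changed in a minority. Of 33 immediate early and growth factor response genes 8 fell and 1 rose, with a median of -0.08, and with library totals 8 fell and 3 rose. AREG, the epidermal growth factor family ligand amphiregulin, stood at 73.8, 76.2 and 76.4 CPM at T12 and 55.2, 59.3 and 58.2 CPM at T16, fully apart (-0.39, SE 0.059, adjusted p = 1.46e-05). NR4A1, an inducible nuclear receptor, stood at 166, 169 and 172 CPM at T12 and 129.7, 132 and 133 CPM at T16 and changed by -0.36 (SE 0.067, adjusted p = 0.000267), and ZFP36L1, which promotes mRNA decay, changed by -0.41 (SE 0.063, adjusted p = 1.51e-05). FOS, JUN and EGR1, the best known members, had log2 fold changes of -0.08, -0.05 and 0.20 and did not pass. IER2, which overlaps another gene and was the 1 that rose, had 0.19, a call lost without the second T12 or the third T16 library. Of 18 MAP kinase feedback genes 4 fell (22.2%, against 5.73% of all genes) and 1 rose (5.56%, against 4.69%). With library totals 3 fell and 3 rose. DUSP5, a phosphatase of ERK, stood at 38.9, 39.6 and 37.0 CPM at T12 and 26.6, 29.5 and 27.1 CPM at T16 and fell by 0.47 (adjusted p = 3.35e-06), while DUSP2, another MAP kinase phosphatase, stood at 4.34, 4.04 and 3.52 CPM at T12 and 6.89, 5.65 and 6.25 CPM at T16 and rose by 0.66 (adjusted p = 0.00558).

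Of 22 glucocorticoid targets 9 fell and none rose in Grain, with a median of -0.13, and in Hay none fell and 1 rose. SGK1, a kinase that regulates sodium transport, stood at 295, 293 and 287 CPM at T12 and 246, 234 and 252 CPM at T16 in Grain, fully apart (-0.26, SE 0.033, adjusted p = 1.29e-06). In Hay it stood at 478, 476 and 473 CPM at T12 and 515, 507 and 520.3 CPM at T16, a change of 0.11 (SE 0.033, adjusted p = 0.03), so that it fell in Grain and rose in Hay (difference -0.37, SE 0.047, adjusted p = 1.44e-05). DUSP1, a MAP kinase phosphatase, stood at 128, 125 and 131 CPM at T12 and 98.4, 111 and 111 CPM at T16 and changed by -0.26 (SE 0.043, adjusted p = 4.56e-05), and its difference between media was -0.32 (SE 0.06, adjusted p = 0.00172). TSC22D3, known as GILZ, stood at 105, 106 and 112 CPM at T12 and 89.0, 90.1 and 88.5 CPM at T16 and fell by 0.27 (adjusted p = 0.0003). FKBP5, a co-chaperone of the receptor that overlaps another gene, changed by -0.12. NR3C1, the glucocorticoid receptor, at -0.01 (SE 0.046, adjusted p = 0.971), and PER1 and KLF9, at 0.12 and 0.04, did not pass. SGK1 stood at 131 ± 7.25 CPM at T8 in Grain, below its T16 mean of 244 ± 9.17. With library totals 7 of the 22 fell and 1 rose.

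**Figure D3:**
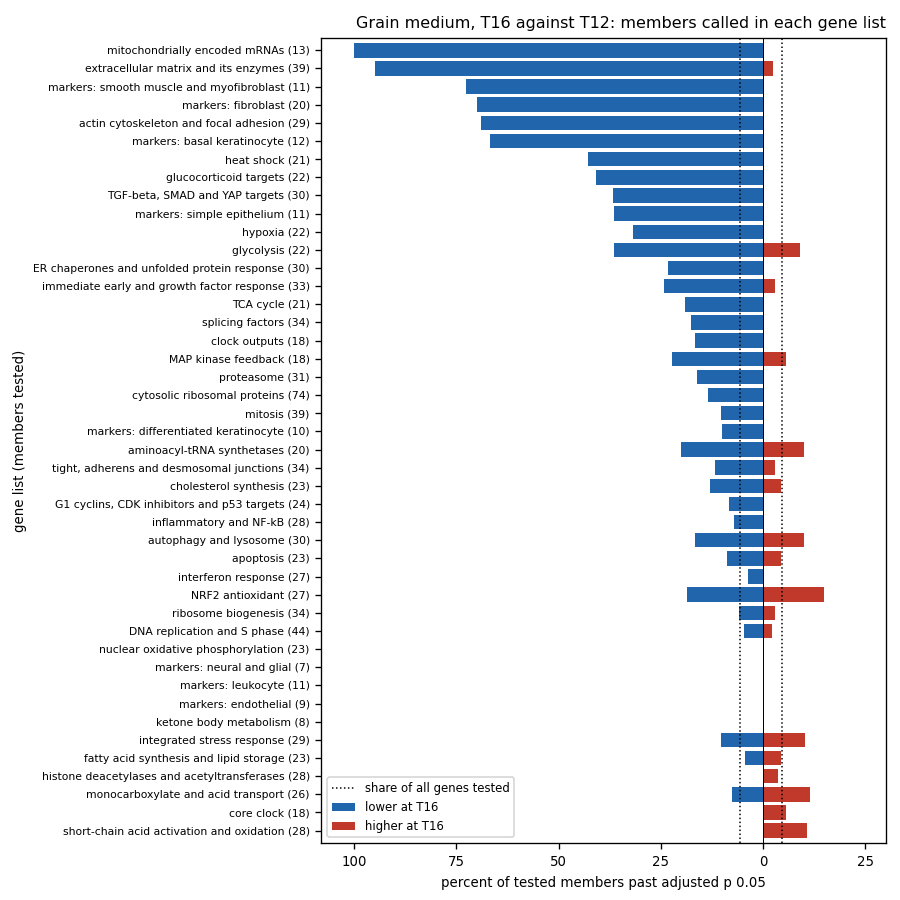
Percent of tested members called lower (blue, to the left) and higher (red, to the right) at T16 than at T12 in Grain medium, for each of the 44 gene lists, with the number tested in brackets. Dotted lines mark the shares over all genes tested, 5.73% lower and 4.69% higher, and the mitochondrially encoded mRNAs and the matrix list reach farthest to the left. Lists of abundant genes compare rather with 10.7% lower, the share among genes of at least 5 CPM, or 17.5%, that among the 5622 with the highest counts.

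Chaperone genes fell in part, and the count depended on the scaling. Of 21 heat shock genes 9 fell and none rose (median -0.08), and with library totals 3 fell and 2 rose. HSPA1A, the inducible HSP70, stood at 194, 189 and 200.0 CPM at T12 and 145, 143 and 153 CPM at T16, fully apart (-0.40, SE 0.041, adjusted p = 1.51e-08), but it overlaps HSPA1L and is uncertain. HSP90AB1, a constitutive HSP90, changed by -0.16 (SE 0.037, adjusted p = 0.00407). Of 30 genes of ER chaperones and the unfolded protein response 7 fell and none rose, among them P4HB, the disulfide isomerase that is also part of collagen prolyl hydroxylase, by 0.18 (adjusted p = 0.000296). PDIA3 changed by -0.30 and overlaps another gene. HSPA5, the chaperone BiP, at -0.05 (SE 0.037, adjusted p = 0.497), and HERPUD1 and DNAJB9, targets of the same response, at -0.02 and -0.03, did not pass. Without the third T12 library 4 of the 30 fell, and with library totals 2 fell and 3 rose.

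The integrated stress response and the NRF2 lists held changes in both directions. Of 29 integrated stress response genes 3 rose and 3 fell, 10.3% each, against 4.69% and 5.73% of all genes. With library totals 6 rose and 2 fell. Without the first T12 library 1 fell. SLC7A11, the cystine carrier of the exchanger xCT, stood at 10.8, 13.1 and 11.9 CPM at T12 and 18.4, 19.2 and 18.1 CPM at T16, fully apart, and rose by 0.64 (SE 0.067, adjusted p = 2.64e-08), although it overlaps other genes. In Hay it stood at 14.5, 15.2 and 13.4 CPM at T12 and 16.0, 14.8 and 13.4 CPM at T16 and its change there was 0.04 (SE 0.067, adjusted p = 0.858), a difference of 0.60 (SE 0.095, adjusted p = 0.000223). The other rises were TRIB3, a pseudokinase, at 0.32 and VLDLR, a lipoprotein receptor that overlaps other genes, at 0.19. The falls were amino acid carriers: SLC7A5 changed by -0.27, SLC38A2 by -0.23 and SLC3A2, with an overlap, by -0.17. ATF4, the central factor of the response, was at -0.08 and ASNS, asparagine synthetase, at -0.03, neither past the test. Of 27 NRF2 antioxidant genes 4 rose (14.8%) and 5 fell (18.5%), and with library totals 10 rose and 1 fell. Without the first T12 or the first T16 library 2 rose, and without the latter 3 fell. SQSTM1, the autophagy receptor p62, stood at 232, 225 and 230.3 CPM at T12 and 271, 273 and 278 CPM at T16 and rose by 0.26 (adjusted p = 1.86e-05; it overlaps other genes), and TXN, thioredoxin, changed by -0.22, with an overlap as well.

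Among metabolic lists, glycolysis and hypoxia genes had the most falls. Of 22 glycolysis genes 8 fell and 2 rose, and with library totals 5 fell and 4 rose. Only 1 rose without the first T12, the second T12 or the third T16 library. SLC2A3, the glucose carrier GLUT3, stood at 163, 158 and 152 CPM at T12 and 119.5, 125 and 129.8 CPM at T16, fully apart (-0.34, SE 0.051, adjusted p = 1.44e-05). GAPDH changed by -0.24 (SE 0.034, adjusted p = 4e-06) and LDHA, lactate dehydrogenase A, by -0.21 (SE 0.036, adjusted p = 0.000125). Of 22 hypoxia genes 7 fell and none rose (4 and 2 with library totals), among them VEGFA, the vascular growth factor, at -0.24 (SE 0.043, adjusted p = 0.000175), and LOX. Also among these 7 were P4HA1 and P4HA2, which like LOX are described with the matrix genes above. Of 21 genes of the TCA cycle 4 fell (19.0%, against 5.73% of all genes), each overlapping another gene. Among them were CS, PC and GLUD1, by 0.14, 0.18 and 0.11. Only 1 of the list fell without the first T16, the second T16 or the third T12 library, 2 without the second T12 library, and none with library totals, where 3 others of the list rose. Of 23 cholesterol synthesis genes 3 fell (13.0%) and 1 rose (4.35%, against 4.69% of all genes). But DESeq2 gave 7 falls and leaving out the third T16 library 5. The 1 rise was lost without the first T12 or the first T16 library, and 2 rose without the second T16 library. SQLE, squalene epoxidase, stood at 127, 124 and 129.9 CPM at T12 and 107, 106 and 105 CPM at T16 and changed by -0.26 (SE 0.042, adjusted p = 4.36e-05), and HMGCS1, which feeds the pathway, changed by -0.25. In Hay 11 of the 23 fell, and with library totals 2 fell and 7 rose in Grain.

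For the VFAs themselves, 3 of 26 monocarboxylate and acid transport genes rose (11.5%) and 2 fell (7.69%), against 4.69% and 5.73% of all genes. With library totals 4 rose and 1 fell. Without the third T12 library 1 fell. The carrier SLC16A1 (MCT1) at -0.03 (SE 0.038) did not pass. BSG, the chaperone of MCT1, changed by -0.13 (SE 0.033, adjusted p = 0.0078). The bicarbonate carrier SLC4A7 stood at 159, 159 and 154 CPM at T12 and 178, 178 and 171 CPM at T16 and rose by 0.16, also with overlaps, and EMB, another MCT partner, rose from 2.94 to 4.08 CPM. Of 28 genes that activate and oxidise short-chain acids 3 rose (10.7%) and none fell, and with library totals 11 rose. Without the first T16 library 1 rose and 1 fell, and 1 fell without the second T12 library. ACADSB, a dehydrogenase of short branched-chain acyl-CoA, stood at 68.4, 65.8 and 67.9 CPM at T12 and 75.9, 74.5 and 77.6 CPM at T16, fully apart (0.17, SE 0.033, adjusted p = 0.000422). ACADM, with an overlap, changed by 0.23, or 0.15 without the first T16 library, and MCCC1, of leucine breakdown, by 0.17 (adjusted p = 0.0436). None of 8 ketone body genes passed the edgeR test, 2 did at an unadjusted p under 0.05 and none by DESeq2, while 5 rose with library totals. Of 23 genes of fatty acid synthesis and storage, ELOVL5 fell by 0.13, which was 0.083 in size without the third T16 library, and DGAT2 rose by 0.57. Each was 4.35% of the list, against 5.73% lower and 4.69% higher over all genes. Of this list none fell and 5 rose with library totals, and 2 rose without the first T12 library. The call of ELOVL5 was lost without the first T12 or the third T16 library, and that of DGAT2 without the first T16, the second T16 or the third T12 library. Of 28 histone deacetylases and acetyltransferases 1 passed (3.57%, against 4.69% higher over all genes), SIRT3, the mitochondrial sirtuin, at 0.32 (SE 0.089, adjusted p = 0.0173). Its call was lost without the second or the third library of either time point, and 3 of the list rose with library totals. Without the third T12 or the third T16 library, or by DESeq2, 1 fell.

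Of 18 core clock genes tested 1 passed (5.56%, against 4.69% higher over all genes), NR1D2, a nuclear receptor that represses BMAL1. It stood at 33.4, 34.8 and 36.1 CPM at T12 and 37.7, 39.5 and 37.9 CPM at T16, with every T16 library above every T12 library, and rose by 0.14 (SE 0.046, adjusted p = 0.0433). The call was lost without any 1 of the 6 libraries other than the third of T12, with adjusted p from 0.0634 to 0.2, and 4 of the 18 rose with library totals. BMAL1 and CLOCK, the activators, had log2 fold changes of -0.01 (SE 0.04, adjusted p = 0.915) and -0.12 (SE 0.039, adjusted p = 0.0514). The repressors PER1, PER2, PER3, CRY1 and CRY2 had 0.12, -0.16, 0.18, -0.04 and 0.04. BMAL1 stood at 90.7, 83.6 and 89.2 CPM at T12 and 83.7, 90.7 and 86.9 CPM at T16, with overlapping groups. NR1D1 was at -0.12, and RORB, NPAS2, CIART and BMAL2 at 0.93, 0.08, 0.44 and 0.04. Other calls were gained: CLOCK passed as lower without the second T16 library (adjusted p = 0.0264). CIART passed as higher without the third T12 library (adjusted p = 0.018). By DESeq2 1 of the 18 core clock genes was lower. RORA, CSNK1D and CSNK1E lay between -0.06 and 0.11. NR1D1, NPAS2, CIART, CRY1 and CSNK1D overlap other genes. Of 18 clock output genes 3 fell (16.7%, against 5.73% of all genes). They were TSC22D3, the deadenylase gene NOCT (-0.23, SE 0.056, adjusted p = 0.00563) and the repressor gene NFIL3 (-0.15, SE 0.037, adjusted p = 0.00438). DBP was at 0.34, not past the test. With library totals 1 of the 18 output genes fell and 4 rose.

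Genes of growth and protein turnover shifted little. Of 39 mitosis genes 4 fell and none rose, CCNB1, ANLN, TOP2A and TPX2, by 0.24, 0.20, 0.15 and 0.15, ANLN and TPX2 with overlaps. Of 44 S phase genes 2 fell, MCM3 and MCM6, by 0.21 (0.13 without the third T12 library) and 0.16, and RFC5 rose by 0.29 with an overlap. Those were 4.55% lower and 2.27% higher, against 5.73% and 4.69% of all genes. Only 1 of the 44 fell without the second T16 or the third T12 library, and with library totals none fell and 3 rose. CDKN1A, the cell cycle inhibitor p21, stood at 60.8, 64.2 and 64.9 CPM at T12 and 49.2, 52.6 and 55.0 CPM at T16 and fell by 0.28 (adjusted p = 0.000152), and CCND2 changed by -0.32, with an overlap. Of 74 cytosolic ribosomal protein genes 10 fell and none rose, among them RPS29 at -0.18 (SE 0.045, adjusted p = 0.00588). The splicing factor list had 6 falls among 34, and the proteasome 5 among 31. Falls were 13.5% of the ribosomal protein genes, 17.6% of the splicing factors, 16.1% of the proteasome genes and 10.3% of the mitosis genes. Over all genes 5.73% fell, or 10.7% among genes of at least 5 CPM and 17.5% among the 5622 highest in counts. These 4 list counts moved when 1 library was left out, where the falls over all genes also went from 1289 to between 852 and 1148. The ribosomal protein falls then ranged from 4 to 15, the splicing factor falls from 3 to 5, the proteasome falls from 1 to 3 and the mitosis falls from 1 to 4. The lowest of these came without the second T16 or the third T12 library for the ribosomal proteins, the first or second T12 library for the splicing factors, the first T16 library for the proteasome, and the first T12, first T16 or second T16 library for mitosis. With library totals in place of TMM, the ribosomal proteins had 0 lower and 4 higher, the splicing factors 1 lower and 5 higher, the proteasome 1 lower and 4 higher, and the mitosis genes none in either direction. The matrix list kept 32 falls under that scaling, the actin list 14, the fibroblast markers 14 and the mitochondrial mRNAs all 13.

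Inflammatory, autophagy and apoptosis genes changed singly. Of 28 inflammatory genes 2 fell (7.14%, against 5.73% of all genes), or 4 without the third T12 library, and with library totals 1 fell and 1 rose. PTGS2, cyclooxygenase-2, stood at 987, 929 and 932 CPM at T12 and 723, 745 and 705 CPM at T16 and fell by 0.39 (adjusted p = 2.07e-06), with an overlap, and IL1A is described below. RIGI, a sensor of viral RNA, was the single one of 27 interferon genes to pass (3.70%, against 5.73% lower over all genes), at -0.36 (SE 0.11, adjusted p = 0.0252). Its call was lost without the second T12, the third T12, the first T16 or the third T16 library, and with library totals none of the 27 fell and 4 rose. Without the third T16 library 2 rose. Of 30 autophagy and lysosome genes 5 fell (16.7%) and 3 rose (10.0%), and with library totals 2 fell and 6 rose. Without the first or second T16 or the third T12 library 3 of them fell. GABARAP, which coats autophagosomes, stood at 137, 136 and 132 CPM at T12 and 113, 109 and 111 CPM at T16 and changed by -0.28 (SE 0.04, adjusted p = 4.59e-06). Of 23 apoptosis genes MCL1 and DIABLO fell by 0.17 and 0.22, the latter with an overlap, and BIRC2, an inhibitor of apoptosis, rose by 0.12. Those were 8.70% lower and 4.35% higher, against 5.73% and 4.69% of all genes. The call of BIRC2 was lost without the first T12, the third T12, the second T16 or the third T16 library, and 5 of the list rose with library totals.

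The genes of at least 5 CPM that rose most came from several families. SPAG4, a SUN-domain protein of the nuclear envelope, stood at 3.91, 4.06 and 3.87 CPM at T12 and 9.13, 7.37 and 8.61 CPM at T16, fully apart (1.08, SE 0.22, adjusted p = 0.001). Its course was not a single low at T12, with 11.1 ± 0.907 CPM at T8 and 3.91 ± 0.253 CPM at T20, the latter at the level of T12. PADI2, which turns arginine residues into citrulline, stood at 9.39, 8.13 and 8.51 CPM at T12 and 13.6, 14.7 and 13.1 CPM at T16 (0.67, SE 0.072, adjusted p = 3.57e-08). It was at 23.4 ± 1.20 CPM at T8, so T16 lay between the T12 low and the T8 high. DIRAS3, a small GTPase related to Ras, stood at 6.88, 6.53 and 2.45 CPM at T12 and 8.94, 7.84 and 8.10 CPM at T16, a rise of 0.65 (adjusted p = 0.00542) that was 0.31 without the third T12 library, which lies far below the others. CFAP300, a protein of motile cilia, stood at 3.40, 3.65 and 3.32 CPM at T12 and 5.83, 4.93 and 5.31 CPM at T16 (0.63, SE 0.10, adjusted p = 2.22e-05), and CALCA, the gene of calcitonin and its related peptide, at 4.25, 4.61 and 5.24 CPM at T12 and 8.00, 6.40 and 6.37 CPM at T16 (0.56, SE 0.11, adjusted p = 0.000544).

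ERCC6L2, a helicase involved in DNA repair, stood at 79.4, 82.1 and 79.7 CPM at T12 and 99.1, 98.6 and 95.9 CPM at T16, fully apart (0.28, SE 0.034, adjusted p = 3.29e-07). NUDT13, a nudix hydrolase, stood at 15.3, 14.5 and 14.7 CPM at T12 and 20.6, 18.5 and 21.6 CPM at T16 (0.45, SE 0.055, adjusted p = 6.13e-07), and KIAA1586 changed by 0.31 (SE 0.039, adjusted p = 5.54e-07). ZNF19, a zinc finger gene, stood at 7.71, 8.38 and 7.20 CPM at T12 and 12.4, 10.6 and 11.4 CPM at T16 (0.56, SE 0.076, adjusted p = 2.55e-06). DNER, SHC4, TLCD4, VWA7 and ZCWPW1 rose by 0.56, 0.59, 0.57, 0.65 and 0.44, and each overlaps another annotated gene. Of 34 named genes that rose, 31 had their lowest Grain mean at T12.

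The remaining large falls included HSPB6, a small heat shock protein of muscle, at -0.57 (SE 0.10, adjusted p = 0.000119), and OLR1, a receptor for oxidised lipoprotein, at -0.66 (SE 0.13, adjusted p = 0.000837). ADAM19, a membrane protease, ARSB, a lysosomal sulfatase, SGCD, delta-sarcoglycan, and COPZ2, a subunit of the vesicle coat, changed by -0.57, -0.55, -0.54 and -0.54, each with an overlap. FSTL1, a secreted glycoprotein, stood at 1421, 1404 and 1406 CPM at T12 and 1031, 1073 and 1068 CPM at T16 and fell by 0.42 (adjusted p = 6.7e-10).

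**Figure D4:**
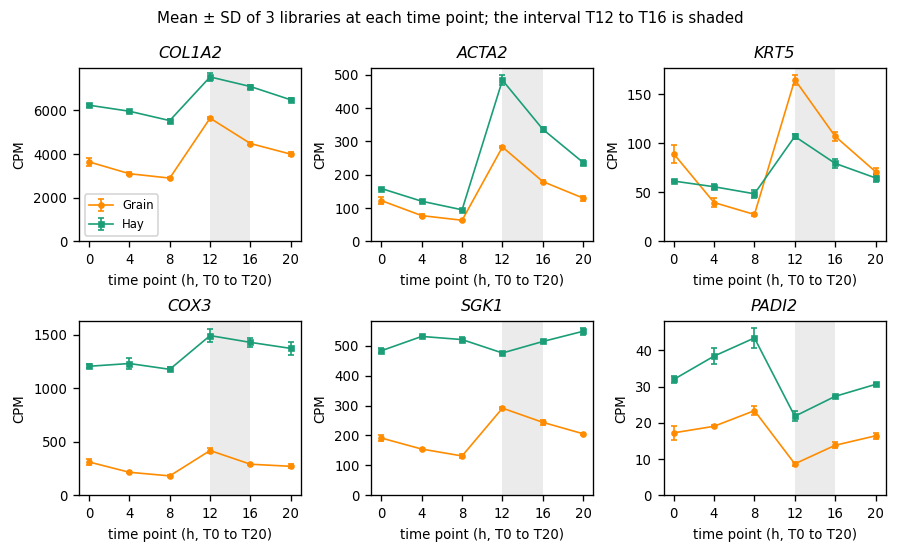
Mean CPM with SD of 3 libraries at T0 to T20 in Grain (orange) and Hay (green) medium for 6 genes, with T12 to T16 shaded. In Grain, COL1A2, ACTA2, KRT5, COX3 and SGK1 peak at T12 and decline to T16, and PADI2 has its low at T12. In Hay, SGK1 has its low at T12.

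Between the same time points in Hay medium, 1504 genes changed, 417 higher (1.85%) and 1087 lower (4.83%). Of the genes that fell in Grain 374 also fell in Hay, 29.0% of the Grain falls and 34.4% of the Hay falls. Of those that rose in Grain 127 also rose in Hay, 12.0% of the Grain rises and 30.5% of the Hay rises, and 27 genes went opposite ways. The change itself differed between media for 408 genes (1.81%), 164 of them among the Grain falls and 108 among the Grain rises.

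Genes with the firmest difference between media included several that moved in opposite directions. IL1A, the cytokine interleukin-1 alpha, stood at 70.6, 70.3 and 78.2 CPM at T12 and 65.4, 63.0 and 63.0 CPM at T16 in Grain and 98.2, 93.3 and 94.3 CPM at T12 and 121, 114 and 117 CPM at T16 in Hay. It fell by 0.20 in Grain and rose by 0.30 in Hay, a difference of -0.49 (SE 0.055, adjusted p = 2.31e-06). SERPINB1, an inhibitor of neutrophil proteases, did the reverse: 183, 177 and 179 CPM at T12 and 192, 198 and 206 CPM at T16 in Grain and 334, 337 and 336 CPM at T12 and 277, 261 and 286 CPM at T16 in Hay, a difference of 0.43 (SE 0.049, adjusted p = 2.31e-06). PLK2, a polo-like kinase, changed by -0.13 in Grain and 0.17 in Hay (difference -0.30, SE 0.036, adjusted p = 6.48e-06), and BCL6, a transcriptional repressor, by -0.25 and 0.11 (difference -0.36, SE 0.048, adjusted p = 2.21e-05). F3, tissue factor, which starts coagulation, stood at 182, 189 and 180.4 CPM at T12 and 130.4, 141 and 140.1 CPM at T16 in Grain, fully apart, and 193, 199 and 199 CPM at T12 and 204, 206 and 206 CPM at T16 in Hay. The Hay libraries were also apart, in the other direction, but the change of 0.06 did not pass there (adjusted p = 0.533), and the difference was -0.48 (SE 0.062, adjusted p = 1.82e-05). HSPA1A and ODC1, the rate-limiting enzyme of polyamine synthesis, differed by -0.45 and -0.26, and both overlap other genes. Under library totals the falls of IL1A and PLK2 in Grain did not pass the threshold.

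**Figure D5:**
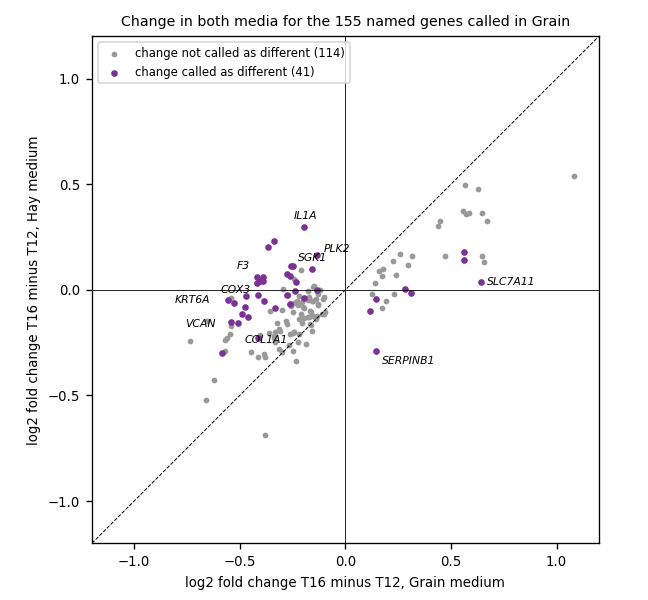
Log2 fold change from T12 to T16 in Hay medium (vertical axis) against that in Grain medium (horizontal axis) for the 155 named genes called in Grain, 1 point per gene, with the line of equal change dashed. Purple marks the 41 genes whose change differed between media past an adjusted p of 0.05, and most of them lie left of zero and above the line, lower in Grain with a smaller fall or a rise in Hay.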

How the data were processed

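RNA was measured in 36 libraries of 12 groups, 3 each. Per the labels' protocols, RNA was extracted with TRNzol, made into libraries with the TruSeq RNA v2 kit and sequenced on a NovaSeq instrument as paired reads. That kit does not mark strand. HISAT2 2.2.1, SAMtools 1.20 and StringTie 2.1.5 are named in the submitters' processing notes. The deposited table holds whole-number read counts per gene. The step from reads to counts, with its genome build and annotation, is not given in the sources used here, although the identifiers have the form that StringTie writes.

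From these counts, edgeR 4.0.16 (limma 3.58.1, R 4.3.3) fitted 12 group means to all 36 libraries, after filterByExpr (minimum count 10, total 15) and TMM scaling. Its quasi-likelihood test gave T16 minus T12 in Grain, in Hay, and the difference of both, two-sided, with Benjamini-Hochberg adjustment over 22488 of 35223 genes and a threshold of 0.05. Fitting all groups makes them share one estimate of spread. CPM values use the TMM factors. Lists carry no test of their own, and some share members. Alternatives were DESeq2 1.42.0, its size factors, no filter, a minimum fold of 1.5, fewer libraries, a replicate block and leaving out each library. Thinning to equal depth, upper-quartile scaling and library totals were added after seeing the data. The fit was tested on simulated data.

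Members and lists were chosen with earlier results of these data known. Named genes have a symbol and are, among called genes of at least 5 CPM in either group whose libraries do not overlap, the 12 largest changes and 6 smallest p-values in each direction. To these come up to 4 called members of at least 1 CPM per list with the smallest p, the 8 smallest p-values of the difference between media, the whole core clock and the 5 most abundant genes. Other genes are named to complete a count or show its other members, and were chosen after their values were seen. Symbols matched RefSeq names (ARS-UI_Ramb_v3.0) for 29910 of 29910 symbols, and 2778 rows carry an identifier without a symbol and are not named, although those past the filter were tested. Overlaps between genes come from the same assembly. With 60366280 to 65228741 counts per library, counting error was small for the genes named at high CPM. Promoter and protein sequences were not analysed here. Values of some list members are not reported here.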

Additional observations from a re-analysis of the deposited data

Results flagged for a closer look

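For 41 named genes the change from T12 to T16 differed between media by edgeR's test of the difference itself, 33 with a difference below zero and 8 with one above. Each value below is the log2 change in Grain minus that in Hay, over 3 libraries a group, and the adjusted p-values lie between 2.31e-06 and 0.0492. In inflammation and coagulation, the change differed for IL1A, PTGS2 and F3 by -0.49, -0.45 and -0.48.

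The matrix genes and secreted or chaperone proteins COL1A1, COL1A2, VCAN, SERPINH1 and FSTL1 differed by -0.35, -0.25, -0.39, -0.29 and -0.19. Around TGF-beta and YAP, INHBA, THBS1 and CCN2 differed by -0.45, -0.33 and -0.19. Of the mitochondrially encoded mRNAs, COX3, CYTB, ND1 and COX1 differed by -0.46, -0.44, -0.38 and -0.25. Keratin and junction genes followed, KRT6A, KRT8 and CLDN4 by -0.51, -0.33 and -0.57.

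Of the growth factor, MAP kinase and glucocorticoid targets, AREG, ZFP36L1, DUSP5, DUSP1, ERRFI1 and SGK1 differed by -0.43, -0.39, -0.39, -0.32, -0.23 and -0.37. Over the whole lists, 4 of 5 called differences of the growth factor response and 3 of 4 of MAP kinase feedback were below zero. The cell cycle regulators PLK2 and CDKN1A and the repressor BCL6 differed by -0.30, -0.35 and -0.36. Of stress and metabolic genes, HSPA1A, ODC1, SLC38A2 and TXNRD1 differed by -0.45, -0.26, -0.27 and -0.13, and the RNA-binding HNRNPC and the viral RNA sensor RIGI by -0.16 and -0.57.

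Differences above zero were those of SERPINB1 at 0.43, SLC7A11 at 0.60, KIAA1586 at 0.33, ERCC6L2 at 0.28, BECN1 at 0.19, BIRC2 at 0.22, DNER at 0.42 and ZNF19 at 0.38. For IL1A, PLK2, SGK1, BCL6 and ODC1 the change passed the test in both media with opposite sign, falling in Grain and rising in Hay, and for SERPINB1 it rose in Grain and fell in Hay. BECN1, CCN2, COL1A1, COX1, DNER, HSPA1A, ODC1, PTGS2, SLC7A11, THBS1 and TXNRD1 overlap another annotated gene.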

How the results depend on the processing

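The count of 2343 changed genes in Grain, the 1504 in Hay and the 408 that differed between media stayed within 1.5 times under DESeq2's size factors, no filter, thinned counts and upper-quartile scaling. DESeq2 itself gave 652 for the difference. A test against a minimum fold of 1.5 left 3 in Grain, 2 higher and 1 lower, with 0 in Hay and 1 for the difference. With only the libraries compared, 632 were higher in Grain, 517 changed in Hay and 206 differed. With library totals, chosen after seeing the data, 3609 changed in Grain, 3125 higher and 484 lower, and 825 differed, so that falls were 13.4% of calls in place of 55.0%, and 46.1% with upper-quartile scaling. Of the 2343 genes, 1534 were also called with library totals.

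Leaving out 1 library gave 1548 to 2077 changed genes in Grain, 681 to 929 higher, 852 to 1148 lower, 896 to 1372 changed in Hay and 255 to 382 that differed. The Grain count was 1548 without the first T16 library, which also gave the 681 higher, and the 852 lower came without the first T12 library. The difference was 255 without the third Grain T12 library, 262 without the second Hay T12 library and 258 without the third, which also moved the Hay count to 896 and 924. Of 155 named genes called, 134 to 142 stayed called without 1 Grain library, and DESeq2 kept 154. Against the minimum fold of 1.5, none of the 155 stayed called.

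A replicate block changed the counts to 2285 in Grain, 1017 higher and 1268 lower, 1453 in Hay and 360 that differed, and it ended the calls of MCCC1, NR1D2 and RRP9 among named genes. The call of RRP9 was also lost in 4 of the 6 fits without 1 Grain library. In Grain the numbers did not pair the libraries: same-numbered libraries of T12 and T16 had deviations correlated at -0.0098, -0.0029 and -0.017, none best with its own number. In Hay the correlations were also small, 0.016, 0.035 and 0.038, but all 3 libraries correlated best with their own number. The promoter motifs planned were not run. Precision is limited by 3 libraries a group, whose source is not given, and genes under 1 CPM rest on few counts.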

Other observations

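Some families were picked by name after the values were seen, so they are described with no test. Over all genes tested 4.69% rose and 5.73% fell. The family counts were not made with library totals, under which the direction of small changes moved. Of 77 genes tested that carry names of cilium parts (CFAP, DNAH, DNAI and IFT), 12 rose from T12 to T16 in Grain medium (15.6%) and none fell. Their median log2 fold change was 0.12 against 0.00 over all genes. CFAP300 is described above. CFAP96 stood at 39.7, 38.1 and 40.6 CPM at T12 and 49.3, 48.0 and 45.6 CPM at T16, fully apart, and rose by 0.27 (adjusted p = 3.74e-06). IFT80, a part of the transport complex that moves cargo along cilia, stood at 105, 105 and 104 CPM at T12 and 119, 119.9 and 118 CPM at T16 and rose by 0.18 (adjusted p = 0.000154). In Hay 3 of the 77 rose and 2 fell.

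Of 249 ZNF zinc finger genes 21 rose (8.43%) and 5 fell (2.01%), with a median of 0.04. ZNF770 stood at 12.3, 10.8 and 10.8 CPM at T12 and 15.0, 15.1 and 15.8 CPM at T16, a rise of 0.44 (adjusted p = 1.14e-05). Of 37 HOX genes, which record position along the body, 4 fell (10.8%) and 1 rose (2.70%). HOXB9, HOXB8 and HOXB6 from 1 cluster changed by -0.37, -0.41 and -0.40, and HOXD8 from another stood at 4.36, 3.67 and 4.62 CPM at T12 and 5.83, 5.86 and 5.73 CPM at T16 and rose by 0.46 (adjusted p = 0.000583). CCDC80, a secreted matrix protein, stood at 1104, 1081 and 1061 CPM at T12 and 835, 843 and 891 CPM at T16 and fell by 0.34 (adjusted p = 1.02e-07). Of all 119 CCDC genes 9 rose (7.56%) and 3 fell (2.52%). Of 16 mitochondrial tRNA genes tested 7 fell (43.8%) and none rose, with a median of -0.47. The libraries keep no strand and COX1 overlaps a mitochondrial tRNA gene, so tRNA counts may hold reads of mitochondrial mRNAs. Whether the tRNAs fell apart from those mRNAs was not tested. IFT80, ZNF770, HOXB9, HOXB8 and HOXD8 overlap other annotated genes and are uncertain.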
